A study of Mus musculus with 6 samples.

Results

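Genes of prostaglandin and leukotriene synthesis were compared between microglia, the resident macrophages of the brain, that held few lipid droplets and microglia that held many. The set holds 10 genes, taken by symbol from the 15912 genes of the deposited table of normalized counts, and all 10 were found: the cyclooxygenases Ptgs1 and Ptgs2, the terminal prostanoid synthases Ptges, Ptges3, Hpgds and Tbxas1, and the leukotriene genes Alox5, Alox5ap, Lta4h and Ltc4s. The cells came from the hippocampus of male C57BL/6 mice of 3 months that had received LPS (lipopolysaccharide, a bacterial cell wall component) intraperitoneally at 1 mg/kg for 4 days, with tissue taken 24 h after the last dose. Each library pooled 2 mice, and about 10000 live CD11b+CD45lo cells were sorted by BODIPY, a dye of neutral lipids, into a low and a high gate with 3 libraries each. All 6 libraries carry the same strain, age and LPS treatment, and mice without LPS were not analysed here.

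Eicosanoids are short-lived lipid messengers made from arachidonate. In the prostanoid branch a cyclooxygenase converts arachidonate to prostaglandin H, and terminal synthases turn that into prostaglandin D, prostaglandin E or thromboxane. In the leukotriene branch 5-lipoxygenase, helped by its activating protein, makes leukotriene A, which a hydrolase or a glutathione-conjugating synthase converts further. Lipid droplets are known in leukocytes as a store of arachidonate and a site where these enzymes gather.

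The libraries held 34899413 to 39220494 recovered reads. Microglial markers were abundant in all 6, with P2ry12 at 134430 to 249230 and Tmem119 at 170161 to 288932 normalized counts, and the sum of 9 microglial markers ranged from 2277190 to 2662620 in BODIPY-low and from 1749960 to 2409930 in BODIPY-high libraries. Markers of other cells were detected too. All 11 tested markers of border-associated macrophages, which line the meninges and vessels, were higher in each BODIPY-high library than in any BODIPY-low one. Of these, 9 passed the limma test as higher, against 2.03% of all genes tested, and 11 with the library number as a block, against 4.37%. All 6 choroid plexus markers passed, while 0 of 9 microglial markers did. BODIPY-high library 3 had the highest level of Mrc1, the mannose receptor of border-associated macrophages (23101 normalized counts, against 579 to 7743 in the other 5 libraries). Plin2, the coat protein of lipid droplets, was at 2191 ± 140.2 in the low and 2851 ± 556 in the high gate (SD, n = 3) and did not pass the test (limma, adjusted p = 0.407).

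The sequence just before a gene's start is shown for 4 genes: Ptgs1 and Ptgs2, whose levels were the farthest apart, Hpgds, and Ltc4s, which had the smallest p of the set. The sequences are from RefSeq (build GRCm38.p6, the same assembly as mm10), 250 bases ending just before the annotated start, 5′ to 3′ in the direction of the gene. Capitals mark matches to the motifs named next. The start is that of RefSeq. For Hpgds and Ltc4s it lies inside the gene bounds of GENCODE M21 given below, so part of those windows falls within these bounds. So does the match marked for Hpgds.
Ptgs1, chr2:36230176-36230425, plus strand: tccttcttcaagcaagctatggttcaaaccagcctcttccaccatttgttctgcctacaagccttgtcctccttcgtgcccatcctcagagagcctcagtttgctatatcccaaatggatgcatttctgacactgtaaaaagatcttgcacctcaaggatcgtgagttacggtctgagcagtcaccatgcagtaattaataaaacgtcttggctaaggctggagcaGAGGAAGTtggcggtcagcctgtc
Hpgds, chr6:65144731-65144980, minus strand: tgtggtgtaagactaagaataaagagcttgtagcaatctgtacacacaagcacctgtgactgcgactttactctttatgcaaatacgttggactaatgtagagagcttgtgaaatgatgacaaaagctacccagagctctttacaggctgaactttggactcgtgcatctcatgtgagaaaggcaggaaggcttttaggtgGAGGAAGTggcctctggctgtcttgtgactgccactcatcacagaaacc
Ltc4s, chr11:50238533-50238782, minus strand: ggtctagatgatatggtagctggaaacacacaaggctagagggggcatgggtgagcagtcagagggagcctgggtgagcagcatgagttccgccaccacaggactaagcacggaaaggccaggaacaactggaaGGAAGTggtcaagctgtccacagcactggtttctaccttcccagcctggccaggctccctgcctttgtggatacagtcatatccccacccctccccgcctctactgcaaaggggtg
Ptgs2, chr1:150099781-150100030, plus strand: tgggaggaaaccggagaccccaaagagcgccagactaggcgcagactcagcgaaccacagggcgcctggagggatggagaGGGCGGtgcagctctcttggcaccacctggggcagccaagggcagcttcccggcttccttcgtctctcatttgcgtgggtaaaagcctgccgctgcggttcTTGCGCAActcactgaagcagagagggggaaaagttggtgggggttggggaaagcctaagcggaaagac
Motifs were searched on both strands from 250 bases before to 50 bases after the start, and were chosen after the sequences had been seen. GAGGAAGT, a form of the site of PU.1, a transcription factor of macrophages and microglia, stood 24 bases before the start of Ptgs1 and 49 bases before that of Hpgds, and in 3.2% of all 32851 RefSeq windows of this length. Its shorter core GGAAGT, which lies within it, was also found in Ltc4s, 116 bases before the start, and in 23.8% of all windows. The 4 windows shown include all 3 of the set that hold GGAAGT. The Ptgs2 window held TTGCGCAA, a C/EBP motif, 69 bases before the start (0.183% of all windows). It also held GGGCGG, a GC box (35.7%), 170 bases before the start and, after it, the overlapping motifs ACGTCA and CACGTG (7.51% and 7.15%). A consensus NF-kB motif was in 0.155% of all windows and in none of the 9 windows found for the set. Alox5ap had no entry. A match describes the letters only.

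Among the cyclooxygenases, microglia of both gates held high Ptgs1 and almost no Ptgs2. Ptgs1 encodes the constitutive enzyme and Ptgs2 the form induced by inflammatory signals. Ptgs1 (chromosome 2, 36230426 to 36252272) had 81775, 79406 and 67892.5 normalized counts in BODIPY-low libraries 1 to 3 and 75510.4, 70160 and 56263 in BODIPY-high libraries 1 to 3. The gates overlapped, each BODIPY-high library lay below the BODIPY-low library of its number, and library 3 was the lowest of each gate. The mean went from 76358 ± 7426 to 67311 ± 9935 (SD, n = 3), a log2 change of -0.19 ± 0.14 (SE; limma, adjusted p = 0.758). The sum of microglial markers had the same order of libraries within each gate. Ptgs1 came to 3.15% ± 0.226 of the sum of the 9 microglial markers with BODIPY-low and 3.17% ± 0.0409 with BODIPY-high cells (SD, n = 3), a ratio formed after the values had been seen. In pooled RNA, fewer cells of a type and less RNA per cell cannot be told apart.

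Ptgs2 (chromosome 1, 150100031 to 150108227) had 9, 8 and 1 reads in BODIPY-low libraries 1 to 3 and 1, 22 and 10 reads in BODIPY-high libraries 1 to 3. A count of 0 would allow up to 3 reads, so 1 library of each gate was under that floor and the gates overlapped. Ptgs2 did not pass the filter of 10 normalized counts in 3 libraries and was the member left without a test. In BODIPY-high library 2, which had the most Ptgs2, the level of Ptgs1 per kb of main transcript was 4968 times that of Ptgs2.

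**Figure D1:**
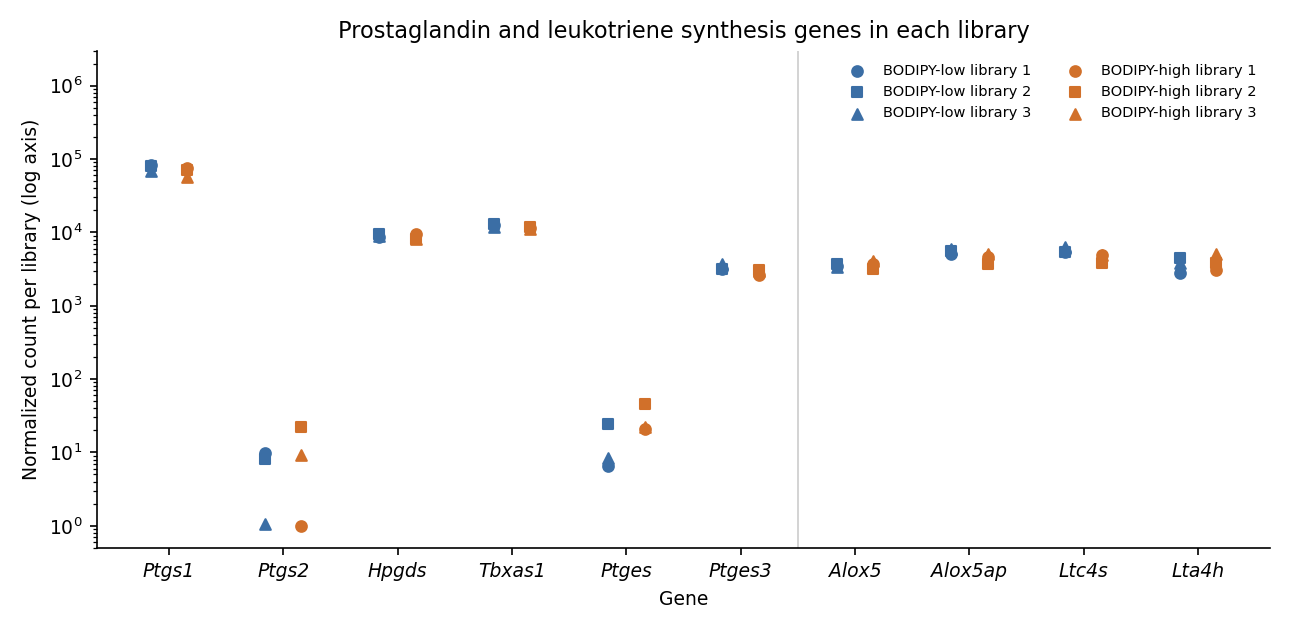
Normalized counts (vertical log axis) of the 10 genes in the 6 libraries, one point per library, colour for the gate and shape for the library number; prostanoid genes are left of the grey line and leukotriene genes right of it. Ptgs2 and Ptges lie at 1 to 46 normalized counts, the other 8 genes above 2600 in every library.

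The terminal synthases of prostaglandin D and thromboxane were abundant in both gates, and neither passed the test between them. Hpgds, the hematopoietic prostaglandin D synthase (chromosome 6, 65117293 to 65144908), had 8692, 9392 and 9028 normalized counts in low-gate libraries and 9566, 8124 and 8047 in high-gate ones. Its log2 change was -0.08 ± 0.10 (SE; limma, adjusted p = 0.874). The 95% interval of the change ran from -18.7% to 10.2%. Tbxas1, the thromboxane A synthase (chromosome 6, 38875404 to 39084585), had 12442, 12869 and 11834 with BODIPY-low and 11539, 11847 and 11170 with BODIPY-high cells. It was lower in each of 3 pairs that share a library number, with a log2 change of -0.10 ± 0.08 (limma, adjusted p = 0.781) and an interval of -18.2% to 5.93%. The highest BODIPY-high value exceeded the lowest BODIPY-low value, so the gates overlapped. Tbxas1 had the smallest spread of the set within the high gate, a coefficient of variation of 2.95%.

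The prostaglandin E synthases differed in level. Ptges, the inducible membrane enzyme (chromosome 2, 30889471 to 30929863), had 6, 24 and 8 reads in BODIPY-low and 21, 46 and 24 in BODIPY-high cells. It was higher in 3 of 3 pairs, library 2 was the highest of each gate, and the gates overlapped. The log2 change was 1.23 ± 0.65 (SE; limma, adjusted p = 0.598), with a 95% interval of -0.25 to 2.71 that leaves the size of any change undetermined at this depth. Ptges3, the cytosolic enzyme that is also the Hsp90 co-chaperone p23 (chromosome 10, 128058954 to 128077272), had 3215, 3166 and 3655 normalized counts in low-gate libraries and 2635, 3097 and 2942 in high-gate ones. Its gates did not overlap, by a margin of 3166 against 3097, and its log2 change was -0.21 ± 0.11 (limma, adjusted p = 0.565). A processed pseudogene copy, Ptges3-ps, is annotated elsewhere in the genome, so the count of Ptges3 depends on how reads that match both were treated.

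In the leukotriene branch, the genes of the 5-lipoxygenase helper and of cysteinyl leukotriene synthesis were lower in every BODIPY-high library than in any BODIPY-low library, and neither difference passed the test. Ltc4s, the leukotriene C4 synthase (chromosome 11, 50236461 to 50238616), had 5463, 5447 and 6276 normalized counts with BODIPY-low and 4863, 3841 and 4932 with BODIPY-high cells. The mean went from 5729 ± 474 to 4545 ± 611 (SD, n = 3), a log2 change of -0.34 ± 0.12 (SE; limma, unadjusted p = 0.0202, adjusted p = 0.325), or -21.0% with an interval of -34.6% to -4.54%. With the library number as a block the adjusted p was 0.0527. Leaving out any 1 library kept the sign, with log2 changes from -0.40 to -0.22.

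Alox5ap, the 5-lipoxygenase activating protein, which presents arachidonate to the enzyme (chromosome 5, 149264767 to 149288153), had 5128, 5505 and 5942 in BODIPY-low and 4637, 3716 and 5076 in BODIPY-high cells. The gates were parted by a margin of 5128 against 5076, and BODIPY-high library 2 was the lowest, as for Ltc4s. The log2 change was -0.31 ± 0.13 (SE; limma, unadjusted p = 0.0358, adjusted p = 0.421; adjusted p = 0.103 with the block), or -19.5% with an interval of -34.0% to -1.79%. The levels of Ltc4s and Alox5ap moved together over the 6 libraries (Pearson r = 0.974 on the log2 scale, a description over 6 libraries that were taken as pairs). Microglial markers differed between gates in the same direction, with all 9 lower (median log2 change -0.29) and 0 past the test, or 1 (Olfml3, named after its values were seen; limma, adjusted p = 0.0111) with the block. As a share of the sum of those markers, Ltc4s was at 0.238% ± 0.0354 in the low and 0.219% ± 0.0562 in the high gate and Alox5ap at 0.230% ± 0.0346 and 0.217% ± 0.0646 (SD, n = 3), ranges that overlapped for both, and these shares were formed after the values had been seen.

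**Figure D2:**
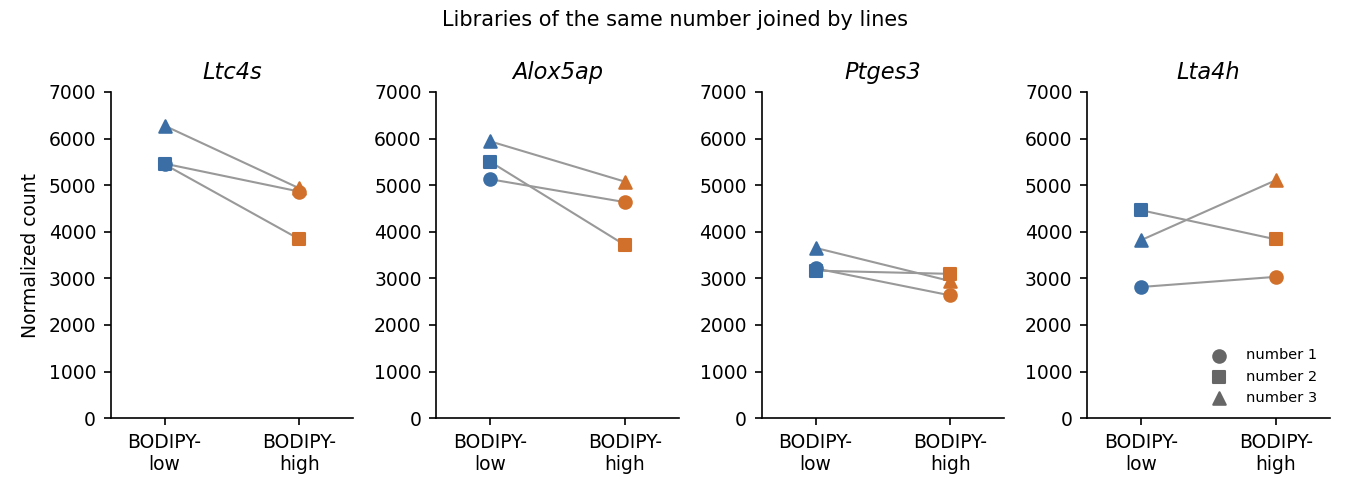
Normalized counts (vertical axis from 0) of Ltc4s, Alox5ap, Ptges3 and Lta4h in BODIPY-low (blue) and BODIPY-high (orange) libraries, with lines joining libraries of the same number. Each line falls for the first 3 genes (Ltc4s from 5463, 5447 and 6276 to 4863, 3841 and 4932), while the lines of Lta4h cross.

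For the enzymes next to these in the branch the gates overlapped. Alox5, the 5-lipoxygenase itself (chromosome 6, 116410077 to 116461178), had 3527, 3681 and 3332.5 normalized counts in low-gate libraries and 3674, 3203 and 4083 in high-gate ones, which overlapped (log2 change 0.05 ± 0.11, SE; limma, adjusted p = 0.938). Per kb of main transcript, Alox5ap was at 3.28, 3.37 and 4.02 times the level of Alox5 with BODIPY-low and at 2.85, 2.62 and 2.80 times with BODIPY-high cells. These ratios did not overlap, and they were formed after the values had been seen and carry no test.

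Lta4h, the hydrolase that makes the neutrophil attractant leukotriene B4 (chromosome 10, 93453411 to 93484875), had 2815, 4463 and 3820 normalized counts in BODIPY-low and 3033, 3838 and 5107 in BODIPY-high cells (log2 change 0.10 ± 0.21, SE; limma, adjusted p = 0.934). It was the most variable of the abundant members within a gate, with a coefficient of variation of 22.5% in the low and 26.2% in the high gate, against 2.95 to 15.5% for the other 7 abundant genes. Libraries numbered 1 were the lowest of each gate. The sum of 7 neutrophil markers was also lowest in libraries numbered 1, with 49871, 148843 and 152609 normalized counts in low-gate libraries and 61729, 95402 and 239426 in high-gate ones. Within that sum, Retnlg and Mmp9 were lowest in library 2 of the high gate. There Retnlg had 754, 73.8 and 2154 and Mmp9 2482, 1345 and 8915 in libraries 1 to 3. Ltb4r1, the leukotriene B4 receptor, named after its values were seen, had 242, 532 and 501 with BODIPY-low and 219, 394 and 829.5 with BODIPY-high cells. Libraries numbered 1 were also the lowest of each gate for the sum of 6 monocyte markers (9664, 24332 and 24081 in low-gate libraries and 9109, 20246 and 32123 in high-gate ones). Chil3 alone gave most of that sum, with 8994, 23118 and 22603 in low-gate libraries and 8191, 19002.5 and 29263 in high-gate ones. The sum of 6 mast cell markers had the same lowest libraries, at 266, 533 and 446 with BODIPY-low and 437.4, 437.7 and 1220.3 with BODIPY-high cells. Most of that sum was Hdc alone (259, 466 and 379, then 363, 406 and 1126). Kit had 5, 63 and 52 reads in low-gate libraries and 64, 30 and 89 in high-gate ones. Cpa3, Tpsb2, Cma1 and Ms4a2 had at most 9 reads in any library, so the sum does not by itself show mast cells. The part of RNA of any of these cells in Lta4h was not tested. Relative to Lta4h, Ltc4s was at 6.07, 3.82 and 5.14 times its level per kb in BODIPY-low and at 5.01, 3.13 and 3.02 times in BODIPY-high cells, lower in 3 of 3 pairs with gates that overlapped.

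Of the 9 tested members, 0 passed the limma test in either direction, against 2.05% of all 12767 genes tested (2.03% higher and 0.0235% lower). The fit with the block also called 0 members, against 4.83% of all genes. At an unadjusted p under 0.05, 2 members were lower, against 2.27% of all genes, and 0 higher, against 8.03%. On recovered reads DESeq2 called 0 members, against 3.63% of all genes higher and 0.251% lower, and edgeR called 0, against 1.74% and 0.00783%. The gates did not overlap for 3 of 9 members, all lower in the high gate, against 5.95% of all genes tested, and for 0 of 9 in the direction of higher, against 10.4%. In 3 of 3 pairs, 5 of 9 members were lower (19% of all genes tested) and 1 was higher (20.7%). The median log2 change of the 9 was -0.10, beside -0.0043 for all genes tested.

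**Figure D3:**
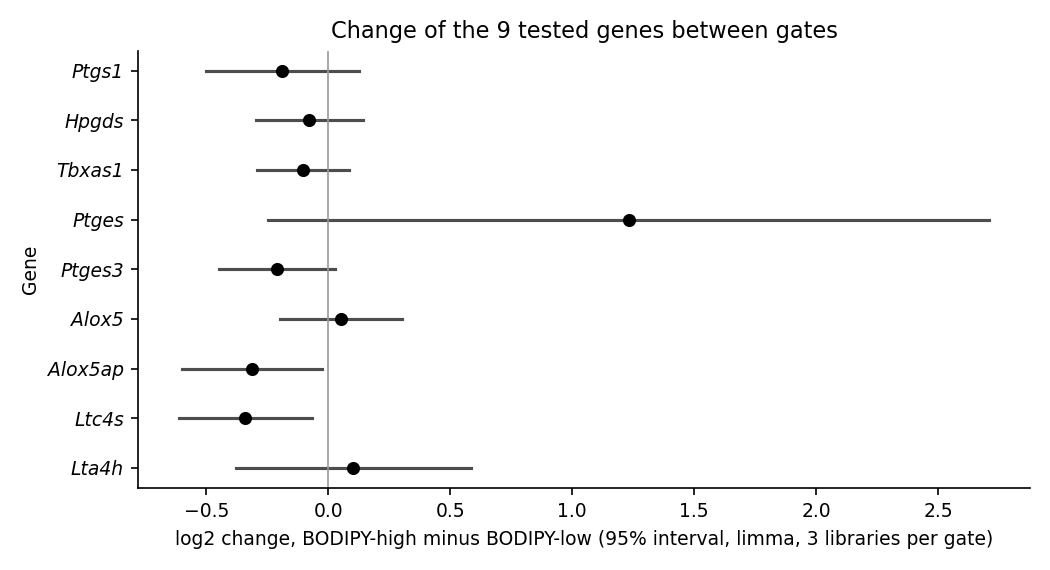
Log2 change of the 9 tested genes (points, horizontal axis, BODIPY-high minus BODIPY-low) with its 95% interval from limma on 3 libraries per gate. The intervals of Ltc4s and Alox5ap, which are not adjusted for the number of genes, lie below 0, and that of Ptges is the widest, from -0.25 to 2.71.

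Levels between genes were compared per kb of main transcript, the longest transcript that GENCODE M21 tags as principal. In the low gate the order was Ptgs1 (26633 ± 2590 normalized counts per kb, SD, n = 3), Ltc4s (8827 ± 731), Tbxas1 (6222 ± 262), Alox5ap (4416 ± 325), Hpgds (2600 ± 101), Lta4h (1823 ± 409), Ptges3 (1673 ± 135), Alox5 (1245 ± 61.9), Ptges (3.63 ± 2.74) and Ptgs2 (1.44 ± 1.05). The ranges of Lta4h and Ptges3 overlapped, as did those of Ptges and Ptgs2, so these neighbours cannot be ordered. The high gate had the same order of means. There the ranges of Ltc4s and Tbxas1 (5918 to 7599 and 5613 to 5953), of Hpgds and Lta4h, of Lta4h and Ptges3, and of Ptges3 and Alox5 overlapped, while those of Ptges (5.76 to 12.6) and Ptgs2 (0.225 to 4.93) did not. The synthases of prostaglandin D and the inducible one of prostaglandin E stood far apart, with Hpgds at 186 to 1385 times the level of Ptges per kb over the 6 libraries. The order depends on the length used: per kb of all annotated exons Tbxas1 was at 1362 ± 57.2 in the low gate, below Ptges3. Its mean was also below that of Hpgds, but their ranges overlapped (1301 to 1415 and 1353 to 1462), so these neighbours cannot be ordered. The first 2 and last 2 places were the same.

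**Figure D4:**
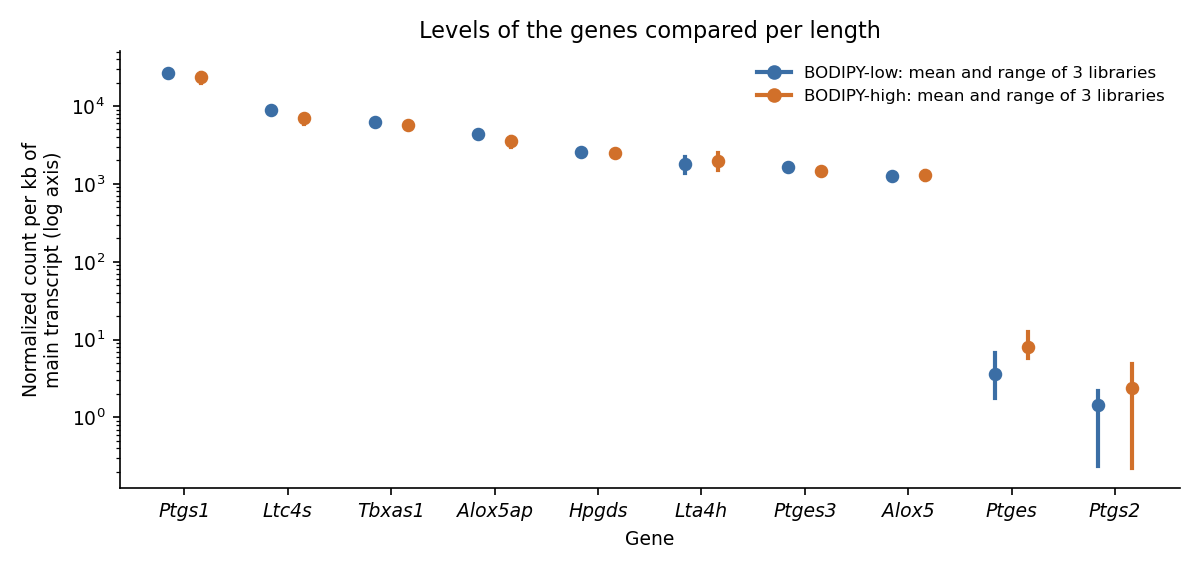
Normalized counts per kb of main transcript (vertical log axis) of the 10 genes, ordered by their mean in the low gate, with points for means and bars for the range of 3 libraries in each gate. The 8 abundant genes lie at 1135 and above, and Ptges and Ptgs2 at 12.6 and below.

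By the rule for likeness, the genes whose levels followed Ltc4s most closely over the 6 libraries were Mri1 (Pearson r = 0.990), Tmem179b (0.983) and Pdcd2 (0.980), and those nearest to Alox5ap were Mri1 (0.984), Tmem179b (0.981) and Sumf2 (0.981). Mri1 encodes a methionine salvage enzyme and Sumf2 a sulfatase-modifying factor. With 6 libraries and 10461 candidate genes, 32 genes had r over 0.95 with Ltc4s and 30 with Alox5ap, and none of the 4 named passed the limma test (adjusted p of 0.56 to 0.78).

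Around these genes, the pathway was described by 57 further genes in 8 lists, of which 51 were found in the table and 43 were tested. Of these, 2 passed the limma test as higher in the high gate and 0 as lower, against 2.03% and 0.0235% of all genes tested. Their median log2 change was -0.03. At an unadjusted p under 0.05, 9 were higher and 0 lower, against 8.03% and 2.27% of all genes tested. With the library number as a block 7 were higher and 0 lower (4.37% and 0.462% of all genes). DESeq2 also gave 7 and 0 (3.63% and 0.251% of all genes), and edgeR gave 2 and 0 (1.74% and 0.00783%).

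The genes called higher were Ptgds and Pla2g7. Ptgds, the lipocalin-type prostaglandin D synthase known from the meninges and choroid plexus (chromosome 2, 25466709 to 25470046), had 42.8, 9.28 and 87.4 normalized counts in low-gate libraries and 345, 425 and 805 in high-gate ones, an 11.3-fold difference of means (log2 change 3.85 ± 0.70, SE; limma, adjusted p = 0.0299). It makes the same product as Hpgds, which had more counts in every library and did not pass the test. Pla2g7, the secreted hydrolase of platelet-activating factor, which is listed with the phospholipases but acts on that mediator and on oxidized lipids (chromosome 17, 43568098 to 43612201), had 359.9, 236 and 635 with BODIPY-low and 1464, 1751 and 5405 with BODIPY-high cells, a 7.0-fold difference (2.66 ± 0.50; limma, adjusted p = 0.0319).

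For both genes BODIPY-low library 3 was the highest of the low gate and BODIPY-high library 3 the highest of all. The sum of 11 border-associated macrophage markers was highest in the same libraries: it was 3391, 2623 and 7655 normalized counts in BODIPY-low and 23099, 30472 and 86138 in BODIPY-high cells. The sum of neutrophil markers was highest in these libraries too, at 152609 in BODIPY-low library 3 and 239426 in BODIPY-high library 3. The sum of 6 choroid plexus markers was 301, 444 and 2192 in low-gate libraries and 38783, 50672 and 50295 in high-gate ones. No border-associated macrophage or choroid plexus marker was at 0 over a whole gate. Of 5 tested astrocyte markers, 2 also passed as higher (2.03% of all genes tested), and 1 had a log2 change below 0. Those that passed were Aldh1l1 and Aldoc (limma, adjusted p = 0.0256 and 0.00465). Aldh1l1 had 65.8, 66.0 and 96.9 normalized counts in low-gate libraries and 199, 251 and 346 in high-gate ones. Oligodendrocyte markers were not analysed here, and the part of any of these cells in Ptgds and Pla2g7 was not tested. The call of Ptgds was lost (adjusted p of 0.0655 to 0.137) when low-gate library 1 or one of the 3 high-gate libraries was left out, and that of Pla2g7 (0.0566 to 0.12) when low-gate library 1, low-gate library 2, high-gate library 2 or high-gate library 3 was. Leaving out low-gate library 2 or 3 gave Ptgds a log2 change of 2.98 or 4.53, and leaving out high-gate library 3 or low-gate library 3 gave Pla2g7 one of 2.08 or 3.04.

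**Figure D5:**
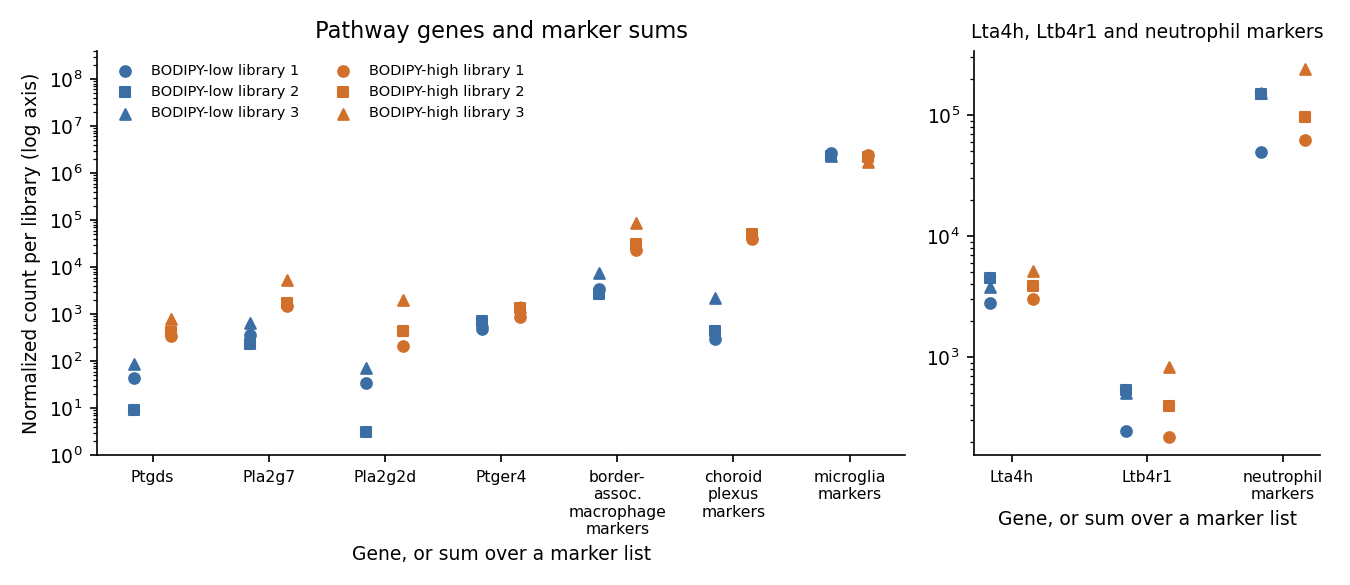
Normalized counts per library (vertical log axes) of 4 pathway genes beside the sums of border-associated macrophage, choroid plexus and microglial markers (left), and of Lta4h and Ltb4r1 beside the sum of neutrophil markers (right), with colour for the gate and shape for the library number. Ptgds, Pla2g7 and Pla2g2d are highest in BODIPY-high library 3, where the border-associated macrophage sum is 86138 and the neutrophil sum 239426. Lta4h and Ltb4r1 are lowest in the libraries numbered 1.

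A further 5 pathway genes passed the limma test with the block and not without it. DESeq2 called 4 of them (Pla2g2d, Pla2g5, Ptger4 and Dpep2). Among the phospholipases, secreted Pla2g2d had 34.0, 3.09 and 71.6 normalized counts with BODIPY-low and 208, 434 and 1997 with BODIPY-high cells (log2 change 4.70 ± 1.08, SE; limma, adjusted p = 0.076, and 0.00177 with the block). Secreted Pla2g5 had 4 reads in the low and 79 in the high gate (limma, adjusted p = 0.0518, and 0.0335 with the block). Ptger4, the EP4 receptor of prostaglandin E2, had 493, 697 and 709.7 in BODIPY-low and 848, 1374 and 1413 in BODIPY-high cells, which did not overlap (0.92 ± 0.23; limma, adjusted p = 0.105, and 0.00175 with the block). Dpep2, a dipeptidase of leukotriene D4 breakdown, went from 27.8 ± 9.25 to 87.2 ± 19.8 (limma, adjusted p = 0.106, and 0.0391 with the block), and Cyp4f18, a leukotriene B4 oxidase, from 386 ± 145 to 647 ± 224 (0.518 and 0.0265). Without the block, Ptger4 also passed when high-gate library 1 was left out (limma, adjusted p = 0.0392) and Pla2g2d when low-gate library 3 was (0.0453). Pla2g5 passed without the block at a pseudocount of 5 (0.0345) and with no filter on low values (0.0309). The sums of border-associated macrophage and choroid plexus markers and the 2 astrocyte markers given beside Ptgds differed between the same gates. The part of these cells here was not tested.

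The other named pathway genes did not pass limma with or without the block. The epoxide hydrolase gene Ephx2 went from 3.55 ± 3.69 to 40.3 ± 20.6 normalized counts (limma, adjusted p = 0.105; DESeq2 called it) and the EP2 receptor gene Ptger2 from 17.2 ± 7.27 to 42.5 ± 8.36 (0.386). Ggt1, a glutamyltransferase of leukotriene C4 processing, had 5.18 ± 6.43 and 18.5 ± 6.53 (0.471). Log2 changes of the acyltransferase genes Mboat7, Lpcat3 and Lpcat2, which return fatty acids to phospholipids, were -0.16, -0.19 and -0.19, and Lpcat2 was among the most abundant genes of the pathway (112665 ± 10271 and 99513 ± 15607). Cotl1, which encodes coactosin-like protein, a partner of 5-lipoxygenase, had the lowest log2 change of the lists (-0.51 ± 0.40; limma, adjusted p = 0.777). It had 4741, 8098 and 2112 normalized counts in low-gate libraries 1 to 3, and its log2 change was -0.055 without library 2 of that gate and -1.02 without library 3 (limma, adjusted p = 0.0865). The remaining genes taken by the rule (Ptges2, Cbr1, Aloxe3, Mgst1, Ggt5, Ptger1, Cysltr1, Fpr2, Ltb4r2 and Abcc4) had log2 changes of -0.38 to 0.53 and adjusted p of 0.691 to 0.928.

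Some further genes are named after their values were seen. Pla2g4a, the cytosolic phospholipase that frees arachidonate, had 4035 ± 137 and 3996 ± 695 normalized counts (limma, adjusted p = 0.974), and Hpgd, the dehydrogenase that inactivates prostaglandins, had 16651 ± 2672 and 15235 ± 1825 (0.863). The thromboxane receptor gene Tbxa2r had 1 read in the low and 2 in the high gate, and the prostaglandin D receptor gene Ptgdr 11 and 17, so neither was tested.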

How the data were processed

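Microglial RNA was sequenced in 6 libraries, 3 per gate. Per the series' design text, the authors aligned reads to mm10 with STAR 2.5.3a, counted them per gene and used DESeq2 at standard settings; FastQC 0.11.4 is listed too. The submitters' processing notes also list mm9, and the annotation and strand setting used for counting are not given in the sources used here. As a unit, the deposited values are a normalized signal, counts per gene after the authors' scaling of each library. All values (100% in each library, tolerance 0.05 of a read) were whole multiples of 1 step, which gave whole reads. Depth was 34899413 to 39220494 reads, and the floor of 3 reads was worth 2.76 to 3.29 normalized counts, for counting error only. Libraries of a gate differed by more than sampling noise (chi-square per degree of freedom of at least 29.1).

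Gates were compared by limma-trend (limma 3.58.1, run under R 4.3.3), two-sided, fitted to log2(normalized count + 1) over all 12767 genes with at least 10 normalized counts in 3 libraries, with Benjamini-Hochberg adjustment and calls at an adjusted p under 0.05. It was tested on simulated data. A larger pseudocount gave smaller fold changes for genes with few reads: the log2 change of Ptges was 1.27, 1.23 and 0.98 at 0.5, 1 and 5. They were not always below those of other fits, as DESeq2 gave 1.16 and edgeR 1.14 for Ptges. Alternatives were other pseudocounts, filters and scaling (TMM), the library number as a block, edgeR 4.0.16, DESeq2 1.42.0 and leaving out each library. The labels give the gates the same library numbers, and deviations from gate means correlated at 0.354, 0.244 and 0.363 in the 3 same-numbered pairs. Other combinations gave -0.255 to -0.0951, which adds no separate evidence, since the deviations of a gene cancel within a gate. The numbers were taken as pairs for comparisons by number and in the block fit. The main fit had no block, so its p, SE and intervals leave the pairing out. With the block, adjusted p (limma) was 0.212 for Ptgs1, 0.249 for Ptges3, 0.278 for Ptges and 0.479 to 0.851 for Tbxas1, Hpgds, Alox5 and Lta4h. Each sample pools 2 mice; whether samples of a gate are separate pools is not given in the sources used here, so p measures only the spread between these samples.

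The members, lists and rule for named genes were chosen with earlier results of these data known. The rule took all members, called pathway genes, the 3 of smallest p in each pathway list, the 3 genes most correlated (Pearson) with each of the 2 members of smallest p, and Plin2, P2ry12, Tmem119 and Mrc1. Pathway genes Prxl2b and Ptgr3 were matched as Fam213b and Zadh2 through RefSeq synonyms; 6 further listed pathway genes were not analysed here. Marker lists of mast cells, monocytes, platelets, fibroblasts, endothelium and astrocytes had 2, 5, 3, 1, 5 and 5 tested members. Of these, 0, 0, 0, 0, 0 and 2 were higher and 0 lower, and 0 of 7 neutrophil markers passed. Over all genes tested, 2.03% were higher and 0.0235% lower. For fibroblasts the count rests on Col1a2 alone (12.6 ± 11.6 and 38.1 ± 23.6 normalized counts), so a low number of calls does not show that these lists were unchanged. With the block 2 neutrophil, 1 monocyte and 4 astrocyte markers were higher and 1 platelet and 1 microglial marker lower. That fit called 4.37% of all genes tested higher and 0.462% lower. Gene coordinates are GENCODE M21 (GRCm38), while the sequences before the starts are placed by RefSeq. Ptgs1, Tbxas1, Alox5ap and Ltc4s share 107 to 268 exon bases with a gene on the opposite strand, whose reads cannot be told apart without strand.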

Additional observations from a re-analysis of the deposited data

How the results depend on the processing

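No member passed limma, edgeR or DESeq2 under any of the 14 alternatives, and the signs of Ptgs1, Ptges, Ptges3, Hpgds, Tbxas1, Alox5ap and Ltc4s were the same under each one in which they were tested. Over all genes, 558 were higher and 59 lower with the replicate block, 464 and 32 by DESeq2, 131 and 1 with a filter of 50 normalized counts, 222 and 1 by edgeR, and 15 to 271 and 0 to 2 with 1 library left out. Pathway genes called higher were 7 with the block, 7 by DESeq2, 3 at a pseudocount of 5 or with no filter (Pla2g5 being the one added) and 0 to 3 with 1 library left out. The block changed the call of no member, and of the named pathway genes only those given above. With 1 library left out the log2 change crossed 0 for Alox5 (-0.033 to 0.14), Lta4h (-0.091 to 0.28), Ptges2 (-0.31 to 0.025), Cbr1 (-0.28 to 0.011), Mgst1 (-0.27 to 0.58), Ptger1 (-0.32 to 0.0093), Fpr2 (-0.0703 to 0.96) and Ltb4r2 (-0.70 to 0.095). Apart from the smaller number of libraries, the cause was not tested. TMM scaling moved the median of all genes by -0.012. Depth limits Ptgs2 and Ptges, which had at most 22 and 46 reads in a library.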
